A study of Mus musculus with 9 samples.

Results

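The transcripts of 34 genes of DNA replication and mitosis were followed in blood monocytes of 3 mouse genotypes. The genes were taken by symbol from a list of proliferation genes and read from the annotation of the array. Of the 34, 33 had a value, out of 19938 genes on the array that were tested, and Ccnb1 was not analysed here. By their roles, 10 of them act in DNA replication (Mcm2, Mcm3, Mcm4, Mcm5, Mcm6, Mcm7, Pcna, Rrm1, Rrm2 and Tyms), and the 23 others measured act in mitosis or its checkpoints. Monocytes came from the blood of tumor-free Balb/c mice, aged 14 to 18 weeks, that were wild type, carried a germline disruption of Ccl2 (Ccl2-/-), which encodes a chemokine that attracts monocytes, or lacked its receptor (Ccr2-/-). Each genotype had 3 arrays, and each array held RNA from monocytes pooled from 5 mice. Any p therefore measures the spread between pools, not between mice. In each knockout the gene is disrupted in every cell from birth. Effects on monocytes therefore cannot be told apart from effects on the marrow they come from. Cells were enriched on magnetic columns, first by removal with antibodies to CD4, CD8, B220, Ly-6G, MHC II and CCR3, and then by selection for CD11b. The study defined monocytes as lacking markers of T, B and NK cells, dendritic cells, neutrophils and eosinophils, although the antibodies named for the removal step include none to an NK cell marker.

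A cell that is about to divide copies its DNA once. The Mcm2 to Mcm7 proteins form the helicase that unwinds DNA at replication forks, Pcna is the sliding clamp of the polymerases, and Rrm1, Rrm2 and Tyms supply deoxynucleotides. Cyclins, Cdk1, the Aurora and Polo kinases, spindle motors and the anaphase-promoting complex then carry the cell through mitosis. Blood monocytes are largely non-dividing cells that were released from dividing precursors in the marrow, and Ly-6Chi monocytes, which use Ccr2 to leave the marrow, convert in blood to the Ly-6Clo form.

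Values are linear intensities, which have no fixed unit and can be compared between arrays for one gene but not between genes. The mean intensity of the 33 genes over all arrays ranged from 147.7 to 5500. The median intensity of an array over all its transcript clusters was 324 to 355 in 8 arrays and 431 in Ccl2-/- replicate 1, which stood apart from the others and also held the highest value of all 9 arrays for 13 of the 33 genes. The Ccr2 transcript measured 9818, 8302 and 8110 in wild type arrays and 681, 693 and 708 in Ccr2-/- arrays. The Ccl2 transcript measured 479, 596 and 451 in wild type arrays and 933, 619 and 599 in the arrays labelled Ccl2-/-. It was not lower there, and which part of the gene the probes read was not analysed, so that this transcript does not check the label Ccl2-/-. No gene of the marker lists, those of monocytes included, had a value of 1 or less in any array. Only 19 values of the whole table were under 1, so this does not show which of those cells were in the pools. In wild type arrays the NK cell markers Ncr1 and Gzma measured 6319 to 6814 and 9129 to 10080. Klra8, the dimmest of that list, measured 281 to 311, and the monocyte marker Csf1r measured 9002 to 9194. For the 10 NK cell markers the summed level per array was 44790 to 48880 in wild type. It was 55110 to 66720 in the arrays labelled Ccl2-/- and 75350 to 77550 where Ccr2 was deleted. In bulk RNA, fewer or more cells of a type cannot be told apart from less or more RNA per cell.

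Genes of replication and of mitosis are known for different sequences before their start sites, and the RefSeq promoter windows of 28 of the 33 genes were read to show these (assembly GRCm38.p6, 250 bases before the annotated start and 50 after it, the first entry of a gene with several). The genes without an entry were Aurkb, Ccna2, Kif20a, Mcm4 and Tpx2. The 250 bases before the start are printed below for 2 helicase genes and 3 mitosis genes that were higher in Ccr2-/- monocytes: Mcm6 (chr1:128359706-128359955, minus strand), Mcm5 (chr8:75109259-75109508, plus strand), Top2a (chr11:99024190-99024439, minus strand), Mki67 (chr7:135716380-135716629, minus strand) and Kif11 (chr19:37376132-37376381, plus strand). Each runs 5′ to 3′ on the strand of the gene, and capitals mark matches on either strand to the E2F site (TTTCCCGC, TTTGGCGC, TTTCGCGC or TTTGCCGC), which the E2F factors of the G1 to S transition bind, to the cell cycle homology region (TTTGAA or TTCGAA) of genes that are active late in the cycle, or to the CCAAT box (CCAAT) that NF-Y binds.
Mcm6: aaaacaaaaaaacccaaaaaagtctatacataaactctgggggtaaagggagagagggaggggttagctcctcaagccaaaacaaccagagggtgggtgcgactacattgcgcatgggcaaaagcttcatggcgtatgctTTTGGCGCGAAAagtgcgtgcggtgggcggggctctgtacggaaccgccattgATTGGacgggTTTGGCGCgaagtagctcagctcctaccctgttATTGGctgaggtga
Mcm5: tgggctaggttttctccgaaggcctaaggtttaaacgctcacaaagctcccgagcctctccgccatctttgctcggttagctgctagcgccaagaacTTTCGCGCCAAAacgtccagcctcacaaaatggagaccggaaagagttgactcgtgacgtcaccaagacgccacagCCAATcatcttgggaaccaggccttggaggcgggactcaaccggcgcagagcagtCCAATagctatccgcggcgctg
Top2a: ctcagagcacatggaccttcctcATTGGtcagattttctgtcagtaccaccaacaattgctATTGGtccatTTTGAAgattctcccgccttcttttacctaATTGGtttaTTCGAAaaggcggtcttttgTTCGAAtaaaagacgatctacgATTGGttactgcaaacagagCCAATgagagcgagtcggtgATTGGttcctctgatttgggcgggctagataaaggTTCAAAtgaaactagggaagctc
Mki67: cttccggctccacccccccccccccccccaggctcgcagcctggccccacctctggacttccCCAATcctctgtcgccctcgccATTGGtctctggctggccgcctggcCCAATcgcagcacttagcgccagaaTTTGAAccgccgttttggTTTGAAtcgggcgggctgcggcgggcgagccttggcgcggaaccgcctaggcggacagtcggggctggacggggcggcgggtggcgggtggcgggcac
Kif11: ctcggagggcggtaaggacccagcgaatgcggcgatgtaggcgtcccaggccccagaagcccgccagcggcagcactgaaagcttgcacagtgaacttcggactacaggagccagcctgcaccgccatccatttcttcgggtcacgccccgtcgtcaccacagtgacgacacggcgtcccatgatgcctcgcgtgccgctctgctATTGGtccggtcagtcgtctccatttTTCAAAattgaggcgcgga
In Mcm6 and Mcm5, 2 E2F matches on opposite strands overlap and form 1 run of capitals. With the annotated start as position 0, the E2F matches of Mcm6 begin at -110, -106 and -47, and those of Mcm5 at -153 and -149. Top2a has 4 matches to the cell cycle homology region, Mki67 has 2, at -116 and -98, and Kif11 has 1, at -19.

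Over the whole windows of 300 bases, an E2F site stood in 4 of 9 replication genes (44.4%), which are Mcm3, Mcm5, Mcm6 and Mcm7, and in 1 of 19 mitosis genes (5.26%), which is Cdk1, against 2.32% of the windows of 27025 genes. The cell cycle homology region stood in 2 of 9 replication genes (22.2%), 15 of 19 mitosis genes (78.9%) and 19.4% of all windows. In the 250 bases before the start alone, which are those printed, it stood in 8 of 19 mitosis genes (42.1%) and 17.4% of all genes. The CCAAT box stood in 8 of 9 replication genes (88.9%), 16 of 19 mitosis genes (84.2%) and 37.9% of all windows. These matches describe the letters only. They occur in genes that differed between genotypes and in genes that did not pass the test, such as Mcm7 and Cdk1. Genes called higher in Ccr2-/- monocytes also lack them. Mcm2, Pcna and Rrm1 have no E2F site in the window, and Birc5 and Nusap1 have no match to any of these motifs.

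**Figure D1:**
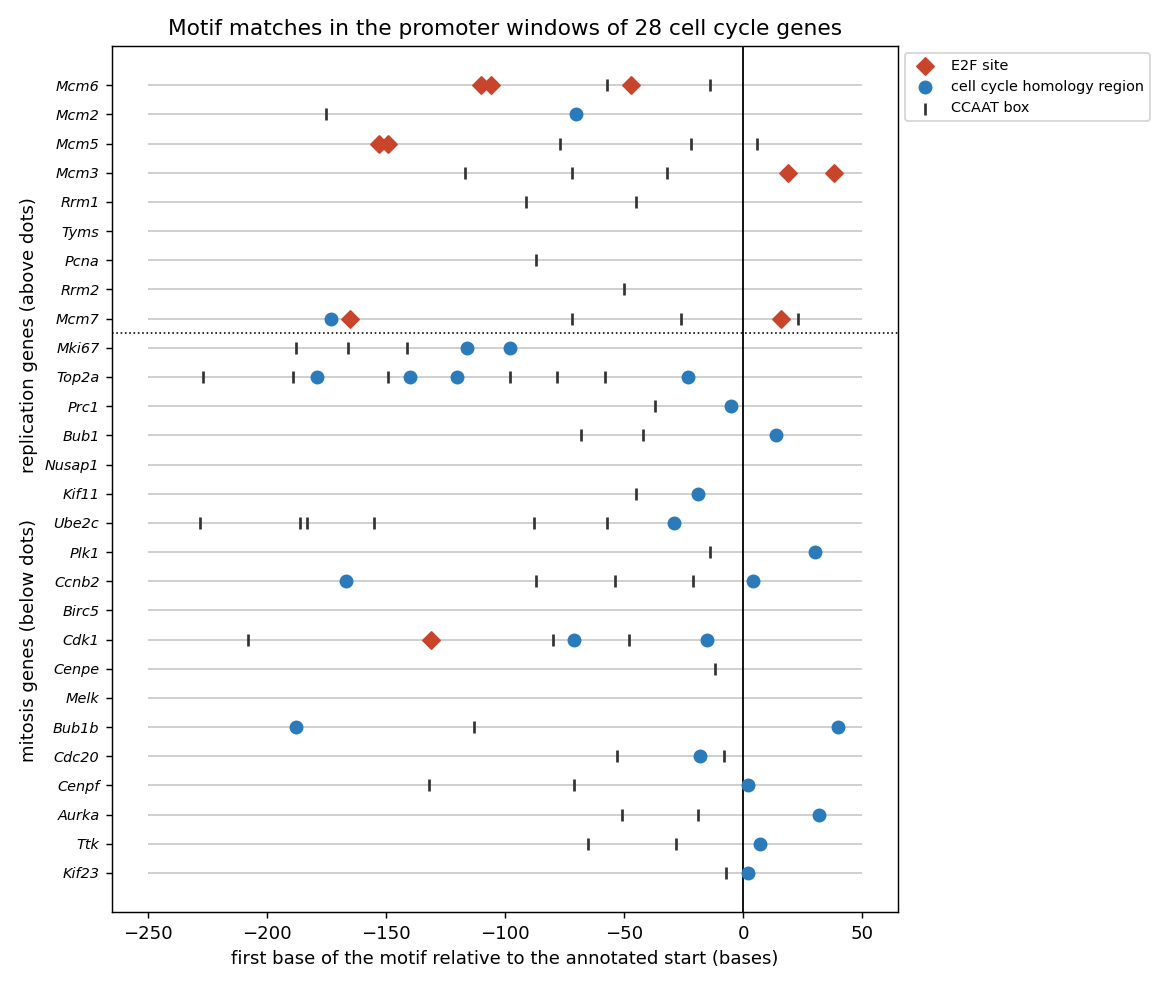
Position of motif matches in the RefSeq promoter windows of 28 genes, in bases from the annotated start (horizontal axis), with 1 gene per line. E2F sites (diamonds) stand in 4 of 9 replication genes and 1 of 19 mitosis genes, and the cell cycle homology region (circles) stands in 15 of 19 mitosis genes, in 8 of them within the 250 bases before the start.

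To ask whether loss of the receptor is accompanied by a change in proliferation genes, Ccr2-/- arrays were compared with wild type arrays. Of the 33 genes, 14 were higher in Ccr2-/- monocytes, 1 was lower and 18 did not pass the test (limma, adjusted p under 0.05 over all 19938 genes). Over all genes, 4.91% were called higher and 8.38% lower. The genes that rose were 7 of the 10 replication genes and 7 of the 23 mitosis genes. The median log2 change was 0.40 (1.32-fold) for replication genes, 0.22 (1.17-fold) for mitosis genes and 0.01 for all genes tested, and 31 of the 33 changes were above 0. The lowest Ccr2-/- array lay above the highest wild type array for 21 genes, 10 of 10 in replication and 11 of 23 in mitosis, against 15.7% of all genes, and the reverse held for 1 gene, Aurkb, against 18.1%. The difference between the 2 classes was not tested. The number of genes called higher fell to 8 without wild type replicate 1, to 9 without wild type replicate 3 and to 9 without Ccr2-/- replicate 1. With centring of each array it fell to 11, which were 4 of 10 in replication and 7 of 23 in mitosis. Of all 19938 genes, 688 were called higher with centring. The share of all genes called with an array left out is not given here, so those falls cannot be read as particular to the 33 genes.

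**Figure D2:**
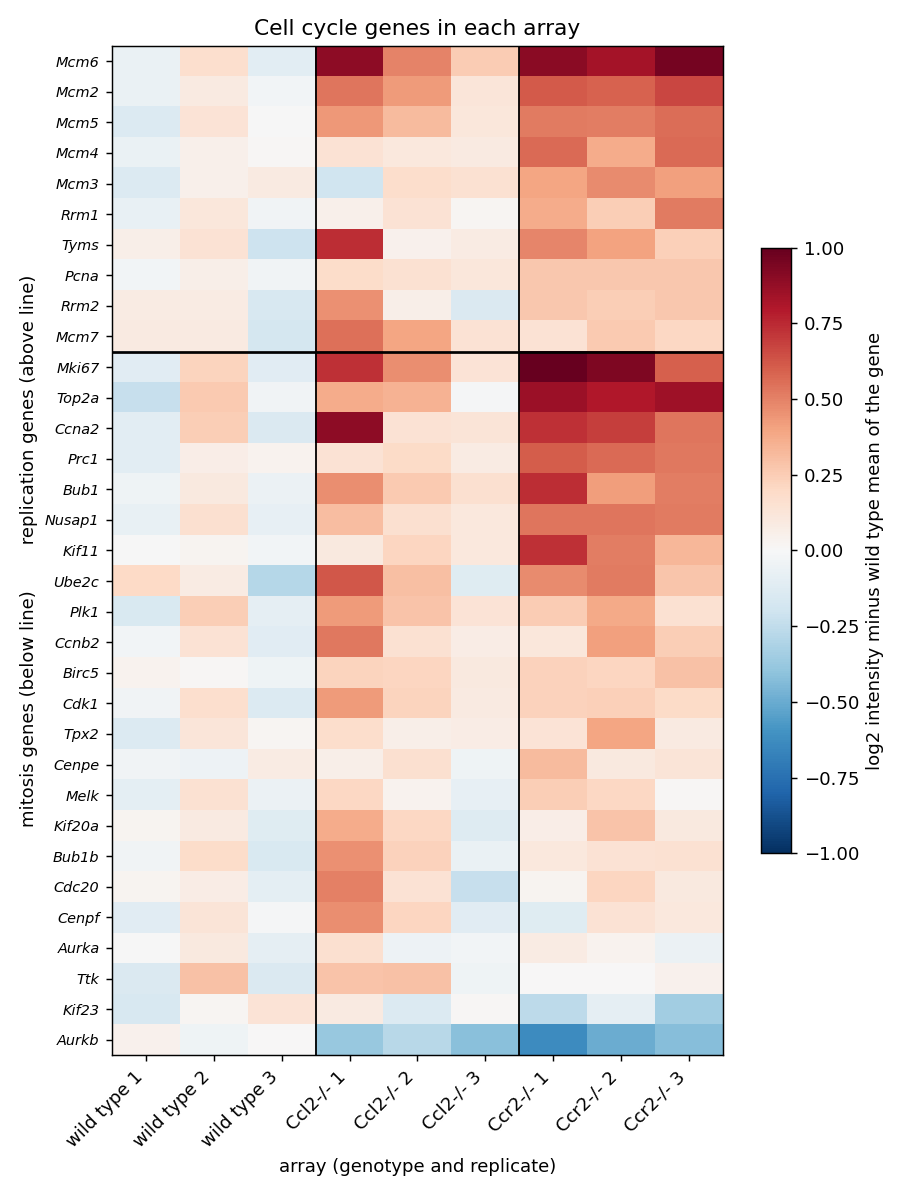
Log2 intensity of each of 33 genes in each of 9 arrays minus the mean of the 3 wild type arrays for that gene, with replication genes above the line and mitosis genes below it. Of the 33 genes, Mcm6, Mki67 and Top2a have the largest mean log2 changes in the Ccr2-/- arrays (0.90, 0.86 and 0.83), Ccl2-/- replicate 1 is darker than replicates 2 and 3 for most genes, and Aurkb is blue in both knockouts.

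The replicative helicase showed the widest change, with 5 of its 6 subunits higher in Ccr2-/- monocytes and a median log2 change of 0.52. Mcm6 measured 545, 641 and 528 in wild type, 1060, 802 and 681 in Ccl2-/-, and 1066, 1014 and 1103 in Ccr2-/- arrays. Its log2 change in Ccr2-/- against wild type was 0.90 ± 0.15 (SE, n = 3 arrays per group, limma adjusted p = 0.0056), a 1.86-fold difference and the largest among the 33 genes. The Ccr2-/- values lay together, far above wild type, and those of Ccl2-/- spread from near wild type to the Ccr2-/- level. Mcm2, another subunit of the ring, measured 551, 616 and 568 in wild type, 838, 776 and 629 in Ccl2-/-, and 885, 868 and 918 in Ccr2-/- arrays. Its log2 change in Ccr2-/- was 0.62 ± 0.11 (limma adjusted p = 0.0056), and the 3 groups did not overlap.

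Mcm5 measured 981, 1188 and 1074 in wild type, 1458, 1340 and 1166 in Ccl2-/-, and 1543, 1533 and 1584 in Ccr2-/- arrays, with a log2 change in Ccr2-/- of 0.53 ± 0.10 (limma adjusted p = 0.0092). Mcm4 measured 1012, 1094 and 1068 in wild type, 1172, 1135 and 1128 in Ccl2-/-, and 1569, 1371 and 1569 in Ccr2-/- arrays, with a log2 change in Ccr2-/- of 0.50 ± 0.07 (limma adjusted p = 0.0027). For both genes the Ccr2-/- arrays lay above all others, but Ccl2-/- overlapped wild type only for Mcm5. Mcm3 measured 370, 422 and 432 in wild type, 355, 459 and 452 in Ccl2-/-, and 536, 565 and 542 in Ccr2-/- arrays, and its log2 change in Ccr2-/- was 0.43 ± 0.11 (limma adjusted p = 0.0372). Its Ccl2-/- arrays fell among or near those of wild type. The call of Mcm3 was lost with quantile normalization (adjusted p = 0.174), with centring of the arrays (0.186) and without any 1 of the wild type or Ccr2-/- arrays (0.0665 to 0.144). Mcm7 was the subunit that did not pass the test. It measured 2060, 2063 and 1712 in wild type, 2842, 2547 and 2139 in Ccl2-/-, and 2139, 2321 and 2234 in Ccr2-/- arrays, with a log2 change in Ccr2-/- of 0.20 ± 0.12 (limma adjusted p = 0.39).

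Of the clamp and the 3 genes of nucleotide supply, Pcna and Rrm1 were higher in Ccr2-/- monocytes. Pcna measured 4887, 5183 and 4864 in wild type, 5653, 5523 and 5381 in Ccl2-/-, and 5997, 6002 and 6011 in Ccr2-/- arrays. This is a narrow step of 1.21-fold in Ccr2-/- (log2 change 0.27 ± 0.06, limma adjusted p = 0.0169), with 3 groups that did not overlap. Pcna has 2 transcript clusters, whose mean log2 values of 12.42 and 12.41 were nearly identical, so that signal from a near-identical copy of the gene cannot be told apart. Rrm1, the large subunit of ribonucleotide reductase, measured 741, 845 and 763 in wild type, 810, 865 and 794 in Ccl2-/-, and 1012, 927 and 1120 in Ccr2-/- arrays, with a log2 change in Ccr2-/- of 0.38 ± 0.09 (limma adjusted p = 0.0248). Each of these calls was lost under 6 of 17 alternatives. Centring of the arrays ended both (adjusted p = 0.124 for Pcna and 0.0908 for Rrm1). The call of Pcna was also lost without wild type replicate 1 or 3 or Ccr2-/- replicate 1 or 2 (0.0599 to 0.0726), and that of Rrm1 without wild type replicate 1 or 3 or Ccr2-/- replicate 1 or 3 (0.0749 to 0.104). Rrm2, the small subunit of the same enzyme, measured 307, 307 and 260 in wild type and 351, 345 and 351 in Ccr2-/- arrays and did not pass the test (log2 change 0.26 ± 0.14, limma adjusted p = 0.348). Tyms, which makes thymidylate, measured 325, 347 and 272 in wild type and 439, 414 and 368 in Ccr2-/- arrays and did not pass it either (log2 change 0.38 ± 0.19, limma adjusted p = 0.291). In both, the lowest Ccr2-/- array was above the highest wild type array.

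**Figure D3:**
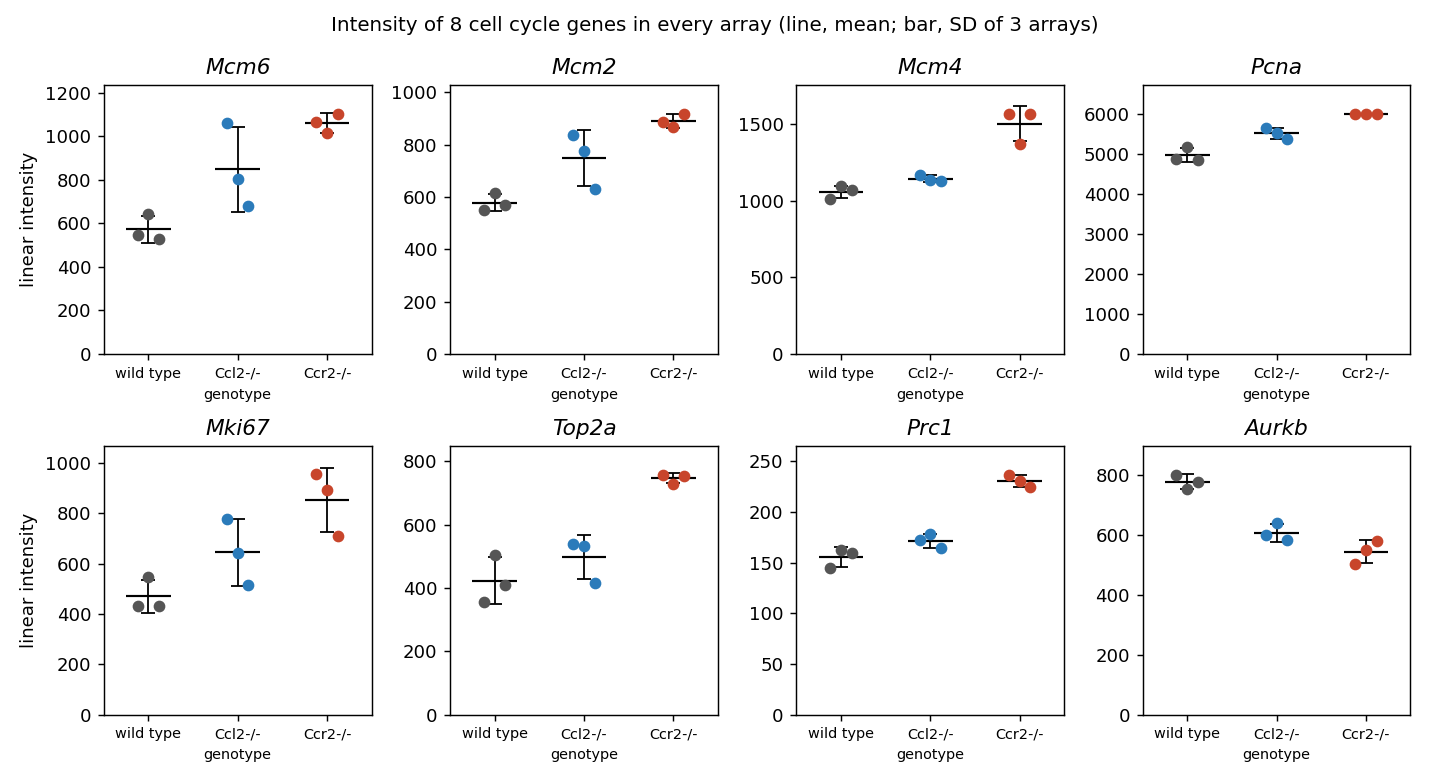
Linear intensity of 8 genes (vertical axes, each from 0) in every array of wild type, Ccl2-/- and Ccr2-/- monocytes, with points for arrays, lines for group means and bars for the SD of 3 arrays. In Mcm6, Mcm2, Mcm4, Pcna, Mki67, Top2a and Prc1 all Ccr2-/- arrays lie above all wild type arrays, and in Aurkb they lie below.

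Among the mitosis genes, 3 of 5 chromosome and kinetochore genes were higher in Ccr2-/- monocytes. Mki67, which encodes the Ki-67 protein that coats mitotic chromosomes and is used to mark dividing cells, measured 433, 547 and 432 in wild type, 778, 644 and 513 in Ccl2-/-, and 954, 894 and 709 in Ccr2-/- arrays. Its log2 change in Ccr2-/- was 0.86 ± 0.18 (limma adjusted p = 0.0134), or 1.81-fold. All Ccr2-/- arrays were above wild type, and the Ccl2-/- arrays overlapped both groups. The call was lost without wild type replicate 1 or 3 or without Ccr2-/- replicate 1 or 2 (adjusted p from 0.0545 to 0.0632). Top2a, the topoisomerase that untangles sister chromatids, measured 357, 503 and 410 in wild type, 541, 534 and 416 in Ccl2-/-, and 759, 728 and 754 in Ccr2-/- arrays, with a log2 change in Ccr2-/- of 0.83 ± 0.14 (limma adjusted p = 0.0054). A second and far dimmer cluster of Top2a, with a mean log2 of 5.73, did not follow it: this cluster measured 45.2, 32.7 and 87.5 in wild type and 72.5, 50.5 and 48.9 in Ccr2-/- arrays, and with the mean of both clusters the call was lost (adjusted p = 0.19). Birc5, or survivin, measured 171, 168 and 162 in wild type, 195, 194 and 179 in Ccl2-/-, and 196, 194 and 205 in Ccr2-/- arrays, a small step (log2 change 0.25 ± 0.06, limma adjusted p = 0.0374) that was lost under 12 of 17 alternatives. The kinetochore genes Cenpe and Cenpf had log2 changes of 0.18 and 0.04 and did not pass the test.

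Of the 7 mitotic and checkpoint kinases, Bub1 rose and Aurkb fell in Ccr2-/- monocytes. Bub1, a kinase of the spindle checkpoint, measured 143, 158 and 142 in wild type, 204, 177 and 164 in Ccl2-/-, and 246, 197 and 211 in Ccr2-/- arrays (log2 change in Ccr2-/- 0.56 ± 0.11, limma adjusted p = 0.011), and its call was lost without wild type replicate 1 (adjusted p = 0.0503). Aurkb, the kinase of the chromosomal passenger complex, in which Birc5 also acts, measured 802, 753 and 778 in wild type, 599, 641 and 582 in Ccl2-/-, and 503, 551 and 580 in Ccr2-/- arrays. It was the only one of the 33 genes called lower, with a log2 change in Ccr2-/- of -0.52 ± 0.08 (limma adjusted p = 0.0026), or 0.699-fold. Every knockout array was below every wild type array. The other kinases, Aurka, Bub1b, Plk1, Ttk and Melk, had log2 changes of 0.02 to 0.26, and none passed the test.

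Of the 6 spindle motors and microtubule-binding proteins, 3 rose in Ccr2-/- monocytes and 3 did not pass the test. Prc1, which bundles microtubules of the central spindle, measured 145, 163 and 160 in wild type, 172, 178 and 165 in Ccl2-/-, and 237, 231 and 225 in Ccr2-/- arrays, with a log2 change in Ccr2-/- of 0.57 ± 0.07 and the smallest adjusted p of the 33 genes (limma, 0.0013). Kif11, the motor that pushes spindle poles apart, measured 249, 254 and 244 in wild type, 267, 289 and 267 in Ccl2-/-, and 413, 355 and 313 in Ccr2-/- arrays (log2 change in Ccr2-/- 0.53 ± 0.10, limma adjusted p = 0.0092). Nusap1, a microtubule-binding protein, measured 234, 275 and 232 in wild type, 306, 275 and 265 in Ccl2-/-, and 356, 356 and 352 in Ccr2-/- arrays (log2 change in Ccr2-/- 0.53 ± 0.09, limma adjusted p = 0.0047). In all 3 the Ccr2-/- arrays lay above every other array. Tpx2 and the motor Kif20a had log2 changes of 0.20 and 0.15. The motor Kif23, which works with Prc1 in the central spindle, measured 641, 725 and 786 in wild type, 760, 652 and 721 in Ccl2-/-, and 597, 671 and 562 in Ccr2-/- arrays, which overlap, and did not pass the test (0.851-fold in Ccr2-/-, limma adjusted p = 0.233).

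None of the 3 cyclin and Cdk1 genes and neither gene of the anaphase-promoting complex passed the test. Ccna2, the cyclin of S phase and G2, came closest. It measured 324, 412 and 315 in wild type, 645, 383 and 380 in Ccl2-/-, and 577, 563 and 504 in Ccr2-/- arrays, with a log2 change in Ccr2-/- of 0.65 ± 0.21 (limma adjusted p = 0.0771). All Ccr2-/- values of Ccna2 were above wild type, and the highest of all was Ccl2-/- replicate 1. The mitotic cyclin Ccnb2 and its kinase Cdk1 had log2 changes of 0.26 and 0.22, and Ube2c and Cdc20, which act in the anaphase-promoting complex, had 0.42 and 0.11.

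**Figure D4:**
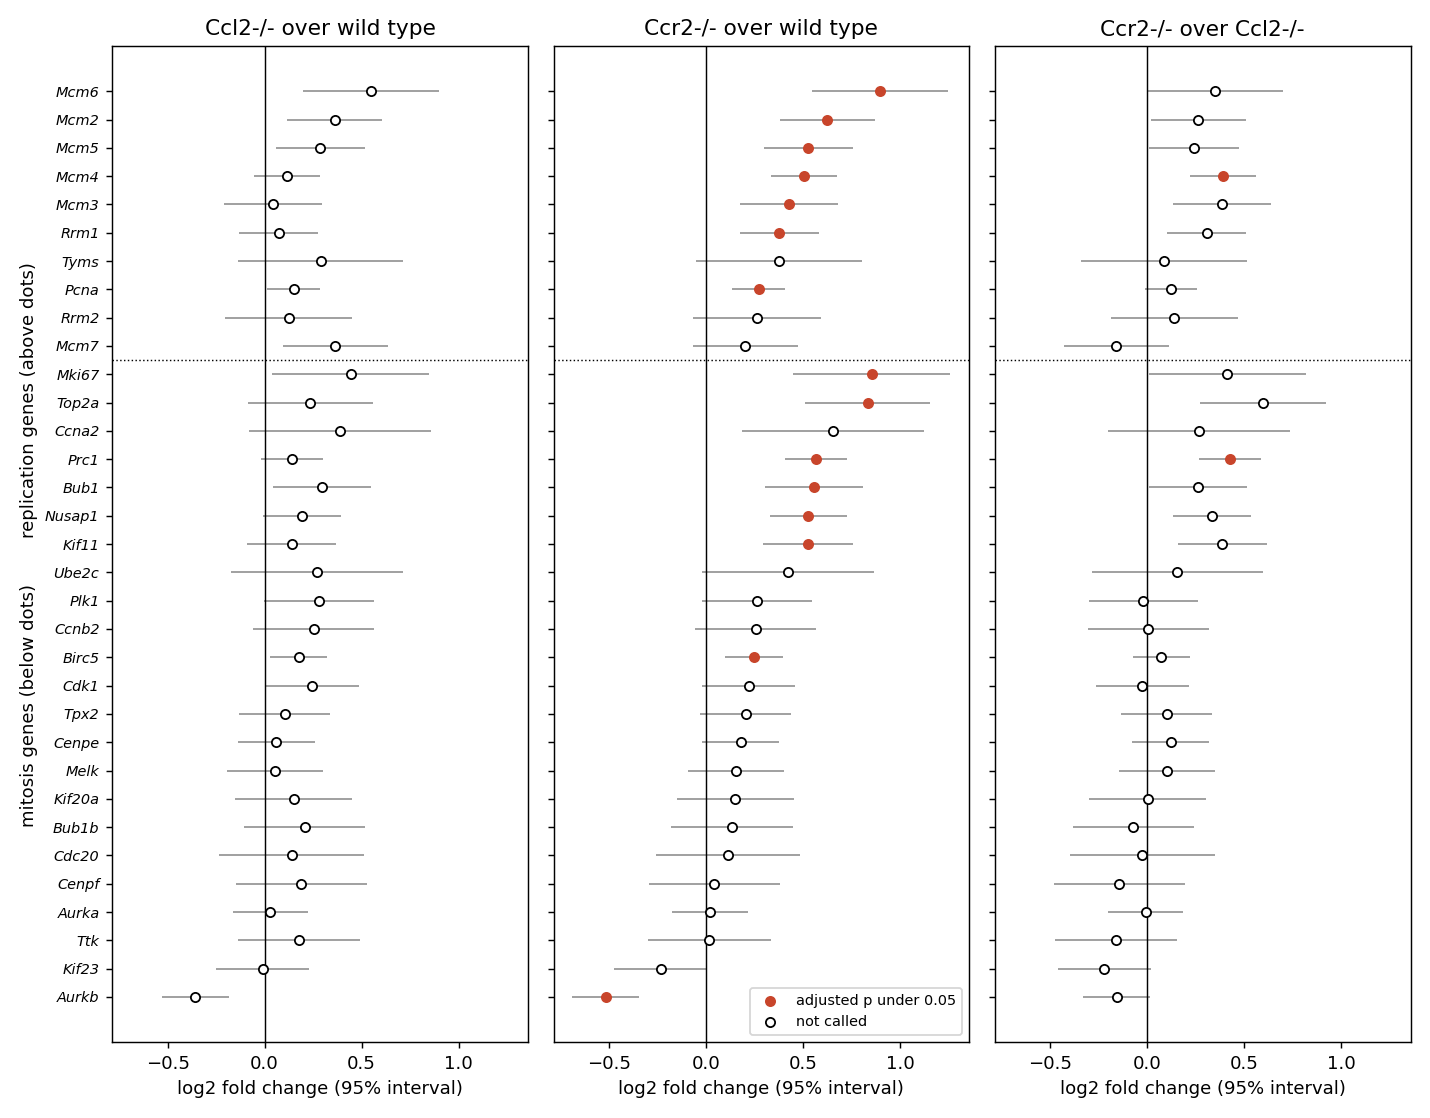
Log2 change of each of 33 genes with its 95% interval in the 3 comparisons, from limma, with filled points at an adjusted p under 0.05. In Ccr2-/- over wild type 15 points are filled, in Ccl2-/- over wild type none, and in Ccr2-/- over Ccl2-/- those of Mcm4 and Prc1.

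The limits named in the methods of the study, a ratio over 1.2 and a difference over 100 between group means, passed 13 genes as higher in Ccr2-/- monocytes, against 6.56% of all genes. They left out Birc5, Bub1 and Prc1, whose means differed by less than 100, and passed Ccna2 and Ube2c, which limma did not call. Marker lists of cell types moved in the same comparison. All 10 NK cell markers were higher (median 1.71-fold), all 7 Ly-6Chi monocyte markers measured were lower, Ccr2 itself among them, and 6 of 9 markers common to monocytes were lower. The summed level of the Ly-6Chi list per array, with Ccr2 counted in it, was 35550 to 44690 in wild type. It was 26340 to 30570 in the arrays labelled Ccl2-/- and 13440 to 14570 where Ccr2 was deleted. Ccr2 alone supplied 8110 to 9818 of each wild type sum, but only 681 to 708 after its deletion. In that share of the fall, disruption of the gene and a change in Ly-6Chi cells cannot be told apart. A sum without Ccr2 was not analysed, though every remaining gene of the list was also called lower. The part of these marker changes in the values of the 33 genes was not tested. None of 7 marrow myeloid precursor markers, from Mpo to Ctsg, was called. Their summed level was 1774 to 2036 in Ccr2-/- arrays, beside 1761 to 2102 in wild type. In the arrays labelled Ccl2-/- it ranged more widely, from 1763 to 2902. None of 5 erythroid markers was called. Their sum was 2782 to 4511 in Ccr2-/- arrays, above the 1869 to 2494 of wild type. At an unadjusted p under 0.05 (limma) 2 of the 5 were higher, and Alas2 had the largest change (3.82-fold, limma adjusted p = 0.0955). None of 7 T cell markers was called either, with sums of 2950 to 11090 in Ccr2-/- and 5955 to 6256 in wild type arrays. Of 10 Ly-6Clo monocyte markers Spn and Cd9 were higher, of 6 B cell markers Cd22, of 5 eosinophil markers Ccr3 and of 6 plasma cell markers Prdm1. Sdc1, Xbp1 and Irf4 of the plasma cell list and Flt3, Bst2 and Tcf4 of 7 dendritic cell markers were lower, and no marker of neutrophils (9 genes), platelets (5) or basophils and mast cells (5) was called.

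Loss of the ligand was then set against wild type. In the arrays labelled Ccl2-/-, none of the 33 genes was called by limma, where 0.0752% of all genes were called higher and 0.0853% lower. At an unadjusted p under 0.05, 9 genes were higher and 1, Aurkb, was lower, against 6.78% and 6.32% of all genes. The 9 were Mcm2, Mcm5, Mcm6, Mcm7 and Pcna in replication and Mki67, Cdk1, Birc5 and Bub1 in mitosis. The wild type arrays and those labelled Ccl2-/- did not overlap for 9 genes that were higher (Mcm2, Mcm4, Mcm6, Mcm7, Pcna, Birc5, Bub1, Kif11 and Prc1), against 9.43% of all genes. A ratio over 1.2 and a difference over 100 passed 7 genes as higher, against 7.84% of all genes. Without Ccl2-/- replicate 3 limma called 2 genes, Mcm2 and Mcm6, but the share of all genes called in that fit is not given here. None of the 10 NK cell markers was called here (median 1.35-fold), and of all marker lists only Cd9 and Itgb3 were called higher and Flt3 lower. At an unadjusted p under 0.05 (limma), 8 of the 10 NK cell markers were higher and 0 lower. By that rule all 7 Ly-6Chi monocyte markers (median 0.63-fold) and all 5 basophil and mast cell markers (median 0.486-fold) were lower. Of 10 Ly-6Clo monocyte markers 5 were higher, and of 7 T cell markers 0 passed in either direction. The part of these markers in the values of the 33 genes was not tested.

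The largest log2 changes in the arrays labelled Ccl2-/- were 0.55 ± 0.15 for Mcm6 (limma adjusted p = 0.192), 0.44 ± 0.18 for Mki67 (0.341) and, downward, -0.36 ± 0.08 for Aurkb (0.101), and the least among replication genes was 0.04 ± 0.11 for Mcm3. Mcm7 had a log2 change of 0.36 ± 0.12 (0.248), and its Ccl2-/- mean was the highest of the 3 genotypes. These values move with the level of whole arrays. The median log2 change was 0.22 for replication genes, 0.18 for mitosis genes and 0.08 for all genes tested, and after centring of each array it was 0.11, 0.06 and -0.03. Without Ccl2-/- replicate 1 the medians were 0.15, 0.11 and 0.00. With centring the sign turned for Mcm3, Rrm1, Aurka, Cenpe, Tpx2 and Melk.

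Whether the 2 knockouts differed was asked directly, in Ccr2-/- against Ccl2-/- arrays, since both share the wild type arrays in the comparisons above. Mcm4 and Prc1 were higher in Ccr2-/- monocytes and no gene was lower, where 0.732% of all genes were called higher and 2.87% lower. The log2 difference was 0.39 ± 0.07 for Mcm4 (limma adjusted p = 0.0309) and 0.43 ± 0.07 for Prc1 (limma adjusted p = 0.0211). All Ccr2-/- values of both genes were above all those labelled Ccl2-/-. At an unadjusted p under 0.05, 11 genes were higher and 0 lower, against 5.66% and 12.9% of all genes. Top2a had the largest log2 difference, 0.60 ± 0.14 (limma adjusted p = 0.0598), with no overlap of its arrays. By adjusted p, the genes that followed Top2a were Kif11 with 0.39 ± 0.10 (0.0796), Nusap1 with 0.33 ± 0.09 (0.0805) and Mcm3 with 0.39 ± 0.11 (0.108). Mki67 had a log2 difference of 0.41 ± 0.18 (0.26). Lowest in replication was Mcm7 with -0.16 ± 0.12 (0.502), and lowest in mitosis was Kif23 (0.857-fold, 0.306).

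The groups did not overlap for 10 genes that were higher in Ccr2-/-, which were 6 of 10 in replication and 4 of 23 in mitosis, against 7.58% of all genes. A ratio over 1.2 and a difference over 100 passed 6 genes as higher, against 3.47% of all genes. The median log2 difference was 0.25 for replication genes, 0.07 for mitosis genes and -0.08 for all genes tested, and after centring it was 0.36, 0.18 and 0.03. For mitosis genes it was -0.04 without Ccl2-/- replicate 3. The signs of Cdk1, Aurka, Bub1b, Cdc20 and Plk1 turned with centring. The count of called genes rested on single arrays. It was 6 without Ccl2-/- replicate 1, 1 without wild type replicate 1, 2 or 3 or without Ccl2-/- replicate 2, and 0 without Ccl2-/- replicate 3 or without any 1 of the Ccr2-/- arrays. In the same comparison 1 of 10 NK cell markers, Klra8, was called higher, though 9 of the 10 were higher at an unadjusted p under 0.05 (limma). For all 10 the Ccr2-/- arrays lay above those labelled Ccl2-/-. Of 7 Ly-6Chi monocyte markers 5 were called lower, the disrupted gene Ccr2 itself among them. Of 9 markers common to monocytes, Cd14, Fcgr1 and Cd68 were called lower. The part of these markers in the values was not tested.

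Taking the group means alone, 23 of the 33 genes ran from wild type through Ccl2-/- to Ccr2-/-, 9 of them in replication and 14 in mitosis. In 8 genes Ccl2-/- had the highest mean (Mcm7, Cdk1, Aurka, Bub1b, Cdc20, Cenpf, Plk1 and Ttk), and in Aurkb and Kif23 wild type had it. Neighbours in the order were told apart by limma only for Mcm4 and Prc1, between Ccl2-/- and Ccr2-/-. Arrays of one group also differed among themselves. The median SD of the log2 values of replication genes was 0.13 among wild type arrays, 0.21 among those labelled Ccl2-/- and 0.05 among Ccr2-/- arrays. Within wild type, replicate 2 was the highest array for 27 of the 33 genes, and within Ccl2-/-, replicate 1 was the highest for 26. In Ccr2-/- the highest array was replicate 1 for 13 genes, replicate 2 for 11 and replicate 3 for 9.

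**Figure D5:**
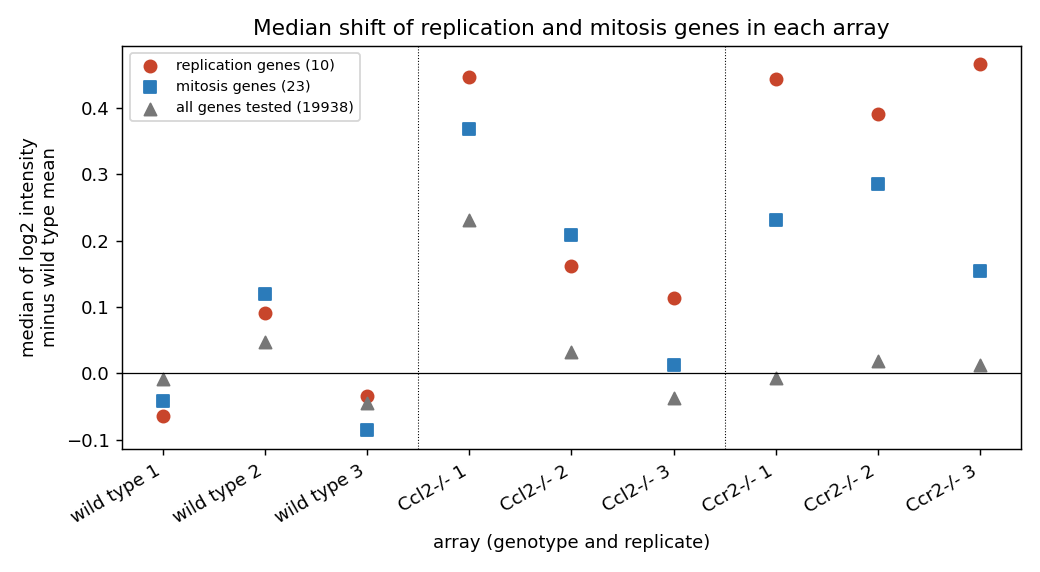
Median over genes of the log2 intensity in each array minus the wild type mean of the gene, for 10 replication genes (circles), 23 mitosis genes (squares) and all 19938 genes (triangles). Replication genes stand at 0.39 to 0.47 in the 3 Ccr2-/- arrays with all genes near 0, and Ccl2-/- replicate 1 stands at 0.45 with all genes at 0.23.

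Per array, the median shift of replication genes from the wild type mean was 0.44, 0.39 and 0.47 in Ccr2-/- arrays, where all genes together stood at -0.01, 0.02 and 0.01. It was 0.45, 0.16 and 0.11 in Ccl2-/- arrays, where all genes stood at 0.23, 0.03 and -0.04. Mitosis genes stood at 0.23, 0.28 and 0.15 in Ccr2-/- and at 0.37, 0.21 and 0.01 in Ccl2-/- arrays. The level of replication genes in Ccl2-/- replicate 1 was thus within the range of Ccr2-/- arrays, while the whole of that array was also raised.

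Other genes of the cycle were read from lists that did not include the 33. Of 43 other replication genes, 9 (20.9%) were higher and none lower in Ccr2-/- against wild type, beside 4.91% and 8.38% of all genes, with a median log2 change of 0.13. They were the polymerase and primase subunits Pola2, Prim1, Pold1, Pold2 and Pole, the single-strand binding subunits Rpa1 and Rpa2, the ligase Lig1 and the maintenance methyltransferase Dnmt1. Pold1 was 1.51-fold higher (limma adjusted p = 0.0074), Dnmt1 1.39-fold (0.0034), Pole 1.36-fold (0.0044) and Pola2 1.29-fold (0.019). Of 61 other mitosis genes, 4 (6.56%) were higher, a share near the 4.91% of all genes, and none was lower, with a median of 0.14. These were Stmn1, a microtubule regulator (1.61-fold, limma adjusted p = 0.0093), the condensin subunit Smc2 (1.56-fold, 0.0058), the cohesin protector Sgo2a (1.32-fold, 0.0041) and the cytokinesis factor Ect2 (1.23-fold, 0.0497). Of 14 genes of nucleotide supply, 3 were higher (Shmt2 1.56-fold, Cad 1.46-fold and Ppat 1.40-fold) and the mitochondrial folate enzyme Mthfd2 was lower (0.826-fold, limma adjusted p = 0.0393).

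Most genes that drive or restrain entry into S phase did not pass the test. Of 17 drivers of the G1 to S transition, the D-type cyclins Ccnd2 (1.82-fold, limma adjusted p = 0.0012) and Ccnd3 (1.17-fold, 0.0436) and the transcription factor Myc (1.52-fold, 0.0016) were higher in Ccr2-/- against wild type, and the kinase Cdk2 was lower (0.803-fold, 0.0255). Of 22 inhibitors, Rbl2 (1.37-fold, 0.0041) and E2f4 (1.17-fold, 0.0495), which act together in repressor complexes, were higher, and the stress gene Gadd45b (0.745-fold, 0.0239) and the repressor E2f8 (0.672-fold, 0.0417) were lower. With 2 of 22 in each direction the inhibitors were near the shares of all genes, 4.91% higher and 8.38% lower. In Ccl2-/- against wild type no gene of these 5 lists was called, and the smallest adjusted p was that of Ccnd2, with a log2 change of 0.57 (limma adjusted p = 0.0774). The genes with the smallest p of the other lists there were Rfc2 (-0.36, 0.251), Cad (0.19, 0.330), Incenp (-0.22, 0.265) and E2f8 (-0.49, 0.230). In Ccr2-/- against Ccl2-/-, Pole (1.28-fold, 0.0373), Shmt2 (1.45-fold, 0.0168), Cad (1.28-fold, 0.0393) and Myc (1.37-fold, 0.0245) were higher, and no gene of these lists was lower.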

How the data were processed

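Monocyte RNA of 9 pools was hybridized to Affymetrix Mouse Gene 1.0 ST arrays. The deposited table holds a linear intensity for each of 35512 transcript clusters and 9 arrays, which the authors computed with dChip; its version, normalization and expression model are not given in the sources used here. All value columns carry a sample's name, so none was left out.

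Clusters with 1 gene symbol (21789) were used, and those without a symbol (12102) or with more than 1 (1621) were dropped. Where a gene had more than 1 cluster (999 genes), the cluster of highest mean log2 stood for it. This left 19938 genes. Values under 1 (19 values) were set to 1 before log2. limma 3.58.1 in R 4.3.3 fitted 3 genotype means to all 9 arrays with moderated variances (two-sided), and p-values were adjusted by Benjamini-Hochberg over all genes in each of 3 comparisons. The fit was tested on simulated data. The study's methods name limits on ratio and difference and no test across arrays, and those limits were applied to arithmetic group means. Arrays have no read depth, and their number, 3 per group, limits the precision.

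The members, the other gene lists and the marker lists were written from general knowledge, with earlier results of these data known. All members are named. Values of every array are given for members called in any comparison and for those with the largest change in each direction within replication and mitosis, and from other lists up to 4 called genes with the smallest p are given, or the 1 with the smallest p where none was called. Names beyond these were picked with their values in view. Replicates were grouped by the labels. The alternatives tried were quantile normalization, median centring of the arrays, a mean intensity over 100 as a filter, a variance trend with intensity, an offset of 50, averaging a gene's clusters, a fit of just the 6 arrays compared, a block for the replicate number, leaving out 1 array at a time, unadjusted p, the limits on ratio and difference, and the 250 bases before the start for motifs.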

Additional observations from a re-analysis of the deposited data

Results flagged for a closer look

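The 2 knockouts differed from each other, by limma's test of the difference itself, for 2 of the 33 genes. The effect of Ccr2-/- was larger than that of Ccl2-/- by 0.39 on the log2 scale for Mcm4 (adjusted p = 0.0309) and by 0.43 for Prc1 (adjusted p = 0.0211), and in both genes 3 of 3 Ccr2-/- arrays were above 3 of 3 Ccl2-/- arrays. Of all genes, 0.732% were called higher and 2.87% lower in this comparison. The call of Mcm4 was lost under 11 of 17 alternatives and that of Prc1 under 6 of 17, and both were lost when only the 6 arrays compared were fitted (adjusted p = 0.131 and 0.0899).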

How the results depend on the processing

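In Ccr2-/- against wild type, 8 of the 15 calls (Mcm2, Mcm4, Mcm5, Mcm6, Aurkb, Kif11, Nusap1 and Prc1) held under all 17 alternatives that refit the data, 7 were lost under at least 1, and none reversed. Some of the 17 could hardly change these calls. Leaving out a Ccl2-/- array keeps the log2 change in this comparison and alters only its variance. All 33 genes passed the intensity filter, and averaging clusters alters the values of Pcna and Top2a only. The number called higher, 14, ranged from 8 to 16 with 1 array left out, and the number called lower was 1 under every alternative run. In Ccl2-/- against wild type the number called higher, 0, ranged from 0 to 2 with 1 array left out, was 9 at an unadjusted p under 0.05 and 7 with the limits on ratio and difference, and the number called lower, 0, was 1 under each of these last rules. In Ccr2-/- against Ccl2-/- the number called higher, 2, ranged from 0 to 6 with 1 array left out and was 4 with quantile normalization, 0 with only the 6 arrays compared, 11 at an unadjusted p under 0.05 and 6 with the limits on ratio and difference. The share of all genes called with 1 array left out, with quantile normalization or with only the 6 arrays compared is not given here. The cause of these changes was not tested.

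With the replicate number as a replicate block, 11 genes were called higher and 1 lower in Ccr2-/- against wild type, 0 and 0 in Ccl2-/- against wild type, and 0 in Ccr2-/- against Ccl2-/-. These counts also stand without the share of all genes called in the same fit. Whether the numbers pair the arrays cannot be settled with 3 arrays per group. Correlations of same-numbered arrays' deviations were 0.34, -0.18 and 0.56 between wild type and Ccl2-/-. They were 0.10, 0.02 and -0.15 between wild type and Ccr2-/-, and -0.01, 0.13 and -0.11 between Ccl2-/- and Ccr2-/-. For arrays with different numbers they were -0.69 to 0.56, -0.18 to 0.15 and -0.11 to 0.09, in the same order. In the 250 bases before the start, the E2F site stood in 3 of 9 replication genes and 1 of 19 mitosis genes (1.91% of all genes), and the cell cycle homology region in 2 of 9 replication genes.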
